A study of Mus musculus with 18 samples.

Results

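Astrocytes that had shared a plate with neurons for 4 days were compared with astrocytes kept alone for the same 4 days, over all genes and within matched pairs of cultures. The comparison takes 6 of the 18 libraries of the series, chosen by their labels: 3 co-cultures and 3 cultures alone, all collected at day 4. The astrocytes of both groups came from the cortex of newborn (P0) mice, had been about 2 weeks in culture, were expanded in DMEM with serum and, at confluence, were moved to serum-free N2 medium. The co-cultures then received hippocampal neurons dissected from P0 mice that carry the red fluorescent protein TdTomato, and the other plates received none. Cells of both kinds of plate were lifted off with the enzyme TrypLE and sorted by TdTomato fluorescence, and the plates without neurons set the gate for cells that lack it. The labels name no mouse strain, sex or number of animals for these cultures and no promoter for TdTomato, and primary cortical cultures can hold glia other than astrocytes. The remaining 12 libraries come from the same kinds of culture at days 2 and 7. The question, as the title of the series puts it in substance, is which astrocyte transcripts depend on neurons.

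Astrocytes take up the glutamate and potassium that active neurons release, pass lactate and lipids to them, and secrete proteins that help synapses form or mature. Many of their genes, among them those for glutamate transporters, connexins and cholesterol enzymes, are known to depend on signals from neurons such as Notch ligands and glutamate itself. Astrocytes cultured from newborn cortex with serum keep many features of dividing, immature or reactive cells.

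The 6 libraries held 14102928 to 24730700 reads in genes, and each had one partner in the other group with the same replicate number and date. Counts were scaled to library size as CPM, on which 3 reads, taken as the floor, stand for 0.114 to 0.223 CPM (counting error only). Of the 17092 genes tested, co-cultures 1, 2 and 3 had a read in 96.8%, 98.1% and 83.25%, against 97.6%, 98.2% and 98.1% in the cultures alone. Co-culture 3 thus stood apart, with the fewest reads and the fewest detected genes of the 6. Differences are log2, co-culture minus alone. A pair difference compares the 2 libraries of a number, and a fitted difference, with its standard error (SE), comes from 1 model over 16 libraries with a term for the number. CPM are not divided by gene length, so they are compared between libraries and not between genes.

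No gene passed the test. With edgeR's quasi-likelihood F test and Benjamini-Hochberg adjustment, 0 of 17092 genes had an adjusted p under 0.05 (0%), and the smallest adjusted p was 0.9996. At an unadjusted p under 0.05 there were 110 genes higher in co-culture (0.644%) and 106 lower (0.62%). Evenly spread p-values would put a share of 0.05 of all genes under that threshold, and these 216 genes were fewer. limma-voom with library weights called 0 genes as well, with 388 higher and 472 lower at an unadjusted p under 0.05. DESeq2 called 7 genes, each with no read in any of the 3 libraries of one group. Among those higher in its fit was Esrp1, an epithelial splicing factor, at 0, 0 and 0.668 CPM in co-culture and 0, 0 and 0 CPM alone. Among those lower were Bmp15, Dync1i1, Hsd3b3 and Lyg2, each at 0 in co-culture and at or under the floor in at least 2 of the cultures alone. The unadjusted p of these 7 genes in edgeR ran from 0.0454 to 0.23. All genes described below are therefore described by their values, and none of them is called.

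Rules on direction alone took in more genes, since they ask for no size of difference and no p-value. With only 3 pairs, many genes that co-culture leaves unchanged would meet such rules by chance. The shares below were not tested against chance, so the sets are descriptions and not a softer form of call. The same holds for each gene described below as not overlapping or as alike in every pair. Among all genes tested, 1577 were higher in 3 of 3 pairs (9.23%) and 2798 were lower in 3 of 3 pairs (16.4%). The groups did not overlap, with every co-culture above every culture alone, for 306 genes (1.79%), and with every co-culture below for 783 genes (4.58%). The fitted difference was positive for 7839 genes and negative for 9253, with a median of −0.04.

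The 3 pairs differed from one another more than they shared. Over the 11249 genes with a mean of at least 5 CPM, the SD of the difference was 0.53 in pair 1, 0.37 in pair 2 and 1.12 in pair 3. At least 2-fold higher in co-culture were 307 genes in pair 1, 212 in pair 2 and 767 in pair 3. At least 2-fold lower were 342, 13 and 1460 genes. Not 1 gene was at least 2-fold higher, or at least 2-fold lower, in all 3 pairs. Pairs 1 and 3 shared 45 genes at least 2-fold higher and 127 at least 2-fold lower, pairs 1 and 2 shared 15 and 0, and pairs 2 and 3 shared 16 and 2. Across genes, which are not independent replicates, the differences correlated at r = 0.02 between pairs 1 and 2, 0.13 between pairs 1 and 3 and −0.09 between pairs 2 and 3. The sign was the same for 49%, 55% and 44.7% of genes. Of the 11249 genes, 1326 were higher and 1424 lower in all 3 pairs. In pairs 1 and 2 alone, leaving out the pair of co-culture 3, 2604 were higher and 2911 lower in both.

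**Figure D1:**
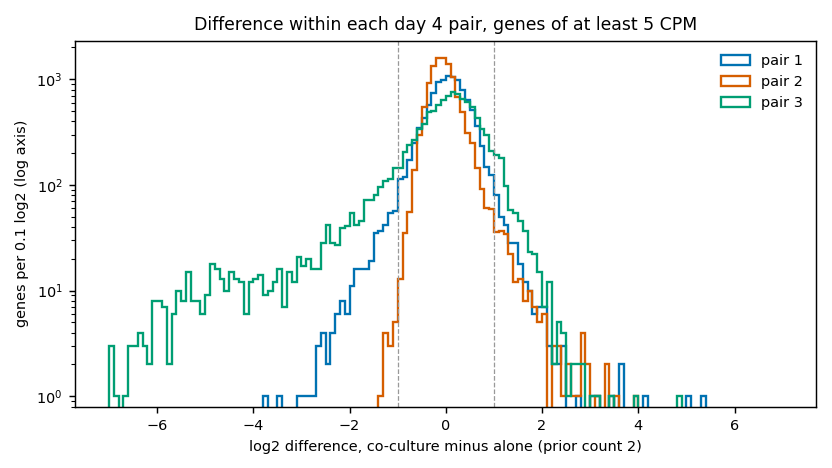
Number of genes (log axis) by log2 difference, co-culture minus alone, within each of the 3 day 4 pairs, for the 11249 genes of at least 5 CPM; dashed lines mark a 2-fold difference either way. Pair 2 is narrow (SD 0.37), and pair 3 is wide (SD 1.12) with a long tail of genes lower in co-culture.

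Among genes of at least 5 CPM with the same direction in 3 pairs, those with the smallest unadjusted p in each direction were taken as leading genes, 12 each way. The 12 higher ones had fitted differences of 0.54 to 2.02 and unadjusted p of 0.00907 to 0.0203. Kank4, whose protein ties integrin adhesions to the cytoskeleton, led with 76.7, 69.4 and 109.5 CPM in co-cultures 1, 2 and 3, against 52.3, 55.1 and 49.98 CPM in the cultures alone. Every co-culture lay above every culture alone, and the cultures alone differed little among themselves. The means were 85.2 ± 21.4 CPM in co-culture and 52.4 ± 2.56 CPM alone (SD, n = 3 each), and the fitted difference was 0.67 ± 0.23 (SE, unadjusted p = 0.00907, adjusted p = 0.9996). Rhot2, a GTPase that moves mitochondria along microtubules, had 36.9, 50.8 and 60.3 CPM in co-culture and 36.8, 30.02 and 24.99 CPM alone. Co-cultures 2 and 3 stood above co-culture 1, which was level with its partner.

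Ube2v1, a partner of the ubiquitin-conjugating enzyme that builds K63-linked chains, was higher by a like amount in each pair. It had 30, 25.8 and 22.9 CPM in co-cultures 1, 2 and 3, against 16.4, 15.01 and 15.9 CPM in the cultures alone. The groups did not overlap, and each group kept within a narrow range. The fitted difference was 0.72 ± 0.26 (SE, unadjusted p = 0.0137). Xylt2, which starts the sugar chains of proteoglycans, had 27.7, 26.2 and 33.5 CPM in co-culture and 17.4, 20.6 and 14.7 CPM alone, again with no overlap. Evc, a ciliary protein of Hedgehog signalling, had 50.6, 67.6 and 95.5 CPM in co-culture and 44.9, 42.9 and 45.1 CPM alone, and Fbxl6, an F-box protein, had 15.7, 24.2 and 15.4 CPM in co-culture and 10.3, 10.02 and 7.33 CPM alone. Tmem251, needed to send enzymes to lysosomes, had the largest fitted difference of the 12. Its CPM were 2.58, 16.8 and 12.02 in co-culture, against 2.09, 2.43 and 2.31 alone, so co-cultures 2 and 3 carried it.

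Adora1, the A1 adenosine receptor through which astrocytes and neurons sense extracellular adenosine, differed more between dates than between groups. It had 58.3, 111 and 172 CPM in co-cultures 1, 2 and 3, against 36.7, 81.9 and 119 CPM in the cultures alone. The pair differences of 0.67, 0.44 and 0.54 were close to one another although the levels spread widely between dates, so the groups overlapped. Its fitted difference was 0.54 ± 0.21 (SE, unadjusted p = 0.0199). Ttyh1, a membrane protein abundant in astrocytes, behaved in the same way, with 81.5, 115 and 279.8 CPM in co-culture and 48.97, 76.8 and 213 CPM alone. Wdr6, a WD-repeat protein that works with a tRNA methyltransferase, had 266, 343 and 415 CPM in co-culture and 147, 292 and 168 CPM alone. Nsmce4a, a subunit of the SMC5/6 complex of DNA repair, had 11.4, 42.9 and 15.5 CPM in co-culture and 5.77, 14.1 and 11.3 CPM alone. For these 4 genes the groups overlapped and only the pairing showed 1 direction.

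The 12 leading lower genes had fitted differences of −2.19 to −0.71 and unadjusted p of 0.00755 to 0.02. Kmt2d, a histone H3K4 methyltransferase, had 218, 263 and 141 CPM in co-cultures 1, 2 and 3, against 489.6, 272 and 273 CPM in the cultures alone. Co-culture 2 lay close to its partner, and the other co-cultures lay below theirs, at pair differences of −1.17, −0.05 and −0.95. Neat1, the long noncoding RNA that builds nuclear paraspeckles, had 44.8, 74.6 and 106 CPM in co-cultures 1, 2 and 3, against 147, 84.7 and 204 CPM in the cultures alone. Its groups overlapped, and its fitted difference was −1.09 ± 0.41 (SE, unadjusted p = 0.0167). Rras2, a Ras-related GTPase, had 39.8, 35.4 and 13.4 CPM in co-culture and 62.5, 48.2 and 28.8 CPM alone. Shank3, a scaffold of postsynaptic densities that is also read in glia, had 3.58, 4.14 and 2.301 CPM in co-culture and 11.5, 5.53 and 12.97 CPM alone, with no overlap.

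Dnah17, a dynein heavy chain of motile cilia, had 3.31, 5.06 and 0.371 CPM in co-cultures 1, 2 and 3, against 20.5, 5.44 and 10.7 CPM in the cultures alone. Xrcc3, a factor of homologous recombination, had 5.55, 5.88 and 0.742 CPM in co-culture and 20.8, 8.16 and 8.8 CPM alone. Sned1, a matrix protein, had 14.8, 33.4 and 4.75 CPM in co-culture and 38.6, 45.6 and 16.6 CPM alone. In these and in 3 genes known only by Entrez ID (100038585, 100502668 and 100502845) and the RIKEN genes 4931406H21Rik and 5930430L01Rik, co-culture 3 was the lowest of the 6 libraries. Only 4 of the 12 lower genes had at least 5 CPM in every library, against 11 of the 12 higher ones.

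**Figure D2:**
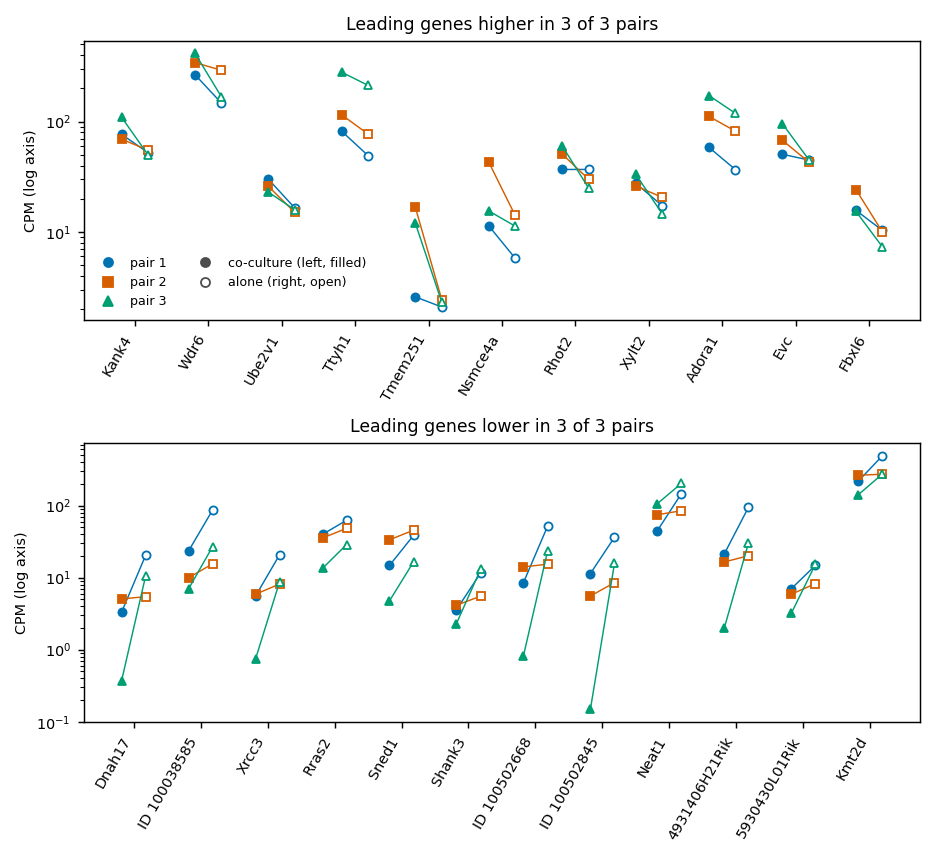
CPM (log axis) of the leading genes in the 6 day 4 libraries, with 1 of the higher ones not shown; for each gene the co-cultures are filled and on the left, the cultures alone open and on the right, and lines join the 2 libraries of a pair. The rule that chose the genes asked for the same direction in each pair, and Rhot2 is about level in pair 1. Each of the lower genes differs least in pair 2, where some, such as Dnah17 and Kmt2d, are nearly level.

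Neuronal RNA was looked for with 32 neuronal genes, of which 25 were tested. Their summed level was 630, 407 and 494 CPM in co-culture, against 696, 372 and 422 CPM in the cultures alone, so the groups overlapped. Plates without neurons expressed some of these genes themselves, with Stmn2 at 362 CPM and Uchl1 at 79.7 CPM in culture alone 1. The sum therefore cannot show neuronal RNA of a few CPM, and single genes were read instead. Nefl, the light neurofilament chain of axons, had 6, 56 and 18 reads in the co-cultures, against 0, 0 and 0 reads in the cultures alone. Pooled over the group that is 1.38 CPM against a floor of 0.0439 CPM for 3 reads, at least 31.5-fold higher. Of these 80 reads 56 came from co-culture 2, and without that library the bound was 13.9-fold, at 0.609 CPM pooled over co-cultures 1 and 3. Nefl had the smallest unadjusted p of all genes tested (0.00552). Dcx, a protein of migrating young neurons, had 93, 2 and 0 reads in co-culture and 0, 4 and 0 reads alone, almost all of them in co-culture 1. Snap25, of the vesicle fusion machinery, had 26, 0 and 0 reads in co-culture and 0, 3 and 0 reads alone.

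Further neuronal genes were split between the groups. Gad2, which makes GABA, had 0.116, 0 and 3.93 CPM in co-culture and 0, 0 and 0 CPM alone, and Neurod6, a transcription factor of pyramidal neurons, had 0.616, 0 and 2.004 CPM in co-culture and 0, 0 and 0 CPM alone; both were at 0 in co-culture 2. Tubb3, a neuronal tubulin that cultured astrocytes also express, had 21.5, 11.9 and 4.23 CPM in co-culture and 15.9, 10.1 and 6.04 CPM alone. Uchl1, a ubiquitin hydrolase abundant in neurons, had 116, 97.4 and 85.9 CPM in co-culture and 79.7, 69.4 and 65.9 CPM alone, with every co-culture above every culture alone. Stmn2, a microtubule regulator of growing neurites, was lower in co-culture in each pair, with 273, 139 and 43.3 CPM in co-culture and 362, 145 and 55.5 CPM alone. Celf4, a neuronal RNA-binding protein, was lower in each pair as well, with 12.1, 6.204 and 4.38 CPM in co-culture and 17.7, 7.83 and 10.5 CPM alone. Of the 25 genes, 3 were higher in 3 of 3 pairs (12%, against 9.23% of all genes) and 5 were lower (20%, against 16.4%). Reads of genes that the cultures alone lacked were thus few in each co-culture, and the part of such RNA in the results below was not tested.

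Markers of further cell types were also read, and most split by date. The 22 microglial and macrophage genes summed to 139, 277 and 74.6 CPM in co-culture, against 107, 289 and 47.5 CPM alone. Of these, 7 had a mean of at least 5 CPM. In 3 of 3 pairs, 4 were higher (18.2%, against 9.23% of all genes) and 2 lower (9.09%, against 16.4%). Laptm5 was higher in each pair, with 4.43, 19.3 and 0.594 CPM in co-culture and 2.2, 11.5 and 0.169 CPM alone. Cd68 was lower in each pair, with 3.12, 5.22 and 0 CPM in co-culture and 6.34, 5.4 and 1.86 CPM alone. Aif1 was near the floor in most libraries, at 0.0385, 2.12 and 0 CPM in co-culture and 0.3799, 0.948 and 0.113 CPM alone. In co-culture 3, 15 of these 22 genes had no read, against at most 1 in the other co-cultures and at most 6 in the cultures alone. Oligodendrocyte genes summed to 318, 215 and 271 CPM in co-culture, against 300, 208 and 337 CPM alone, and Sox10, which defines that lineage, had 19, 1 and 0 reads in co-culture and 0, 0 and 4 reads alone. Endothelial and mural genes summed to 125, 121 and 141 CPM, against 94.3, 123 and 81.4 CPM. Most of that sum was Pdgfrb, which is also in the fibroblast list, at 107, 108 and 116 CPM in co-culture and 83.3, 106 and 65.7 CPM alone. Only 2 of the 10 tested members had a mean of at least 5 CPM. Abcc9 was lower in each pair, with 0.0385, 1.41 and 0.371 CPM in co-culture and 1.75, 2.02 and 4.74 CPM alone. Fibroblast and meningeal genes summed to 240, 223 and 433 CPM, against 188, 215 and 308 CPM, so each co-culture was above its partner. Of the 12 tested members of that list 10 had a positive fitted difference (median 0.47), with medians of 1.07, −0.13 and 0.19 in pairs 1, 2 and 3. Col1a2, a chain of type I collagen, had 58.7, 42.9 and 112 CPM in co-culture and 38.3, 46.6 and 58.95 CPM alone. The part of such cells in the results below was not tested. In bulk RNA, fewer cells of a type and less RNA per cell cannot be told apart.

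Of the 32 astrocyte genes, at most 2 lacked a read in each of the 6 libraries, and most lay somewhat higher in co-culture. Of 32 astrocyte markers and transcription factors, 26 had a positive fitted difference (median 0.24, against −0.04 for all genes and 0.47 for the fibroblast and meningeal list). In 3 of 3 pairs 5 were higher (15.6%, against 9.23% of all genes) and 1 was lower (3.12%, against 16.4%). The lower one was the marker S100b, with 0, 9 and 0 reads in co-cultures 1, 2 and 3, against 9, 12 and 79 reads alone. The list summed to 6133, 8891 and 9952 CPM in co-culture, against 4093, 8042 and 8815 CPM alone. Culture alone 1 was the lowest of the 6, and its pair gave the largest median difference of the list, 0.60, against 0.01 in pair 2 and 0.15 in pair 3. Without the replicate 1 libraries the median fitted difference of the list was 0.04. Sox9, a transcription factor that sets glial fate, had 138, 187 and 229 CPM in co-cultures 1, 2 and 3, against 76.5, 120.5 and 218 CPM in the cultures alone. Its fitted difference was 0.51 ± 0.22 (SE, unadjusted p = 0.0331), the smallest p of the markers. Fgfr3, a growth factor receptor of astrocytes, had 106, 119 and 159.6 CPM in co-culture and 54.3, 112 and 103 CPM alone.

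Gfap, the intermediate filament used as a marker of astrocytes and of their reactive state, differed far more between dates than between groups. It had 186, 636 and 2216 CPM in co-cultures 1, 2 and 3, against 84.1, 688 and 1718 CPM in the cultures alone. It was higher in co-culture in pairs 1 and 3 and lower in pair 2, with means of 1012 ± 1066 CPM in co-culture and 830.0 ± 826 CPM alone (SD, n = 3 each) and a fitted difference of 0.41 ± 0.29 (SE, unadjusted p = 0.174). Aldoc, an aldolase that marks astrocytes, had 33.3, 43.2 and 378 CPM in co-culture and 10.9, 50.9 and 306 CPM alone, likewise with pair 2 the other way. Hepacam, an adhesion protein of astrocytes, was higher in 3 of 3 pairs by small amounts, at pair differences of 0.35, 0.10 and 0.15. The 8 intermediate filament genes had a median fitted difference of −0.09.

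Genes for taking up transmitters, like the astrocyte markers, had their largest median in pair 1 (0.57) and their smallest in pair 2 (0.12), with 0.38 in pair 3. Of the 16 genes of glutamate and GABA uptake and recycling, 13 had a positive fitted difference (median 0.36, or 0.14 without replicate 1). In 3 of 3 pairs 4 were higher (25%, against 9.23% of all genes) and 1 lower (6.25%, against 16.4%). Slc1a3, the glutamate transporter GLAST, had 571, 428 and 1328 CPM in co-cultures 1, 2 and 3, against 342, 357 and 1013 CPM in the cultures alone. Each co-culture was above its partner, the groups overlapped, and the fitted difference was 0.45 ± 0.24 (SE, unadjusted p = 0.0827). Slc1a2, the transporter GLT-1 that neurons are known to induce in astrocytes, had 49.6, 294 and 262 CPM in co-cultures 1, 2 and 3, against 38.3, 324 and 338 CPM in the cultures alone. It was higher in co-culture in pair 1 only, with a fitted difference of −0.13 ± 0.52. Glul, glutamine synthetase, had 386, 387 and 417 CPM in co-culture and 184, 353 and 436 CPM alone: culture alone 1 stood below the other 5 libraries. Got1, an aspartate aminotransferase, had 20.5, 22.1 and 41.5 CPM in co-culture and 14.9, 19.6 and 18.3 CPM alone, with no overlap between groups.

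Of the 17 potassium, water and gap junction genes, 13 had a positive fitted difference (median 0.24, or 0.04 without replicate 1). In 3 of 3 pairs 3 were higher (17.6%, against 9.23% of all genes) and 1 lower (5.88%, against 16.4%). Gja1, connexin 43, had 186, 192 and 665 CPM in co-cultures 1, 2 and 3, against 108, 186 and 458 CPM in the cultures alone. Pair differences were 0.78, 0.04 and 0.54, so pair 2 was level. Kcnj10, the potassium channel Kir4.1, had 555, 432 and 1807 CPM in co-culture and 278, 467 and 1707 CPM alone, and Aqp4, the water channel of astrocyte end-feet, had 467, 710.0 and 1502 CPM in co-culture and 198, 840.0 and 1490.1 CPM alone. Both were higher in co-culture in pair 1 alone beyond a small margin. Gjb6, connexin 30, which mature astrocytes express, was at or near the floor in every library, with at most 12 reads. The 8 sodium pump genes all had a positive fitted difference (median 0.43, or 0.14 without replicate 1), yet 0 of them were higher in 3 of 3 pairs, since their pair medians were 1.06, 0.01 and −0.23.

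**Figure D3:**
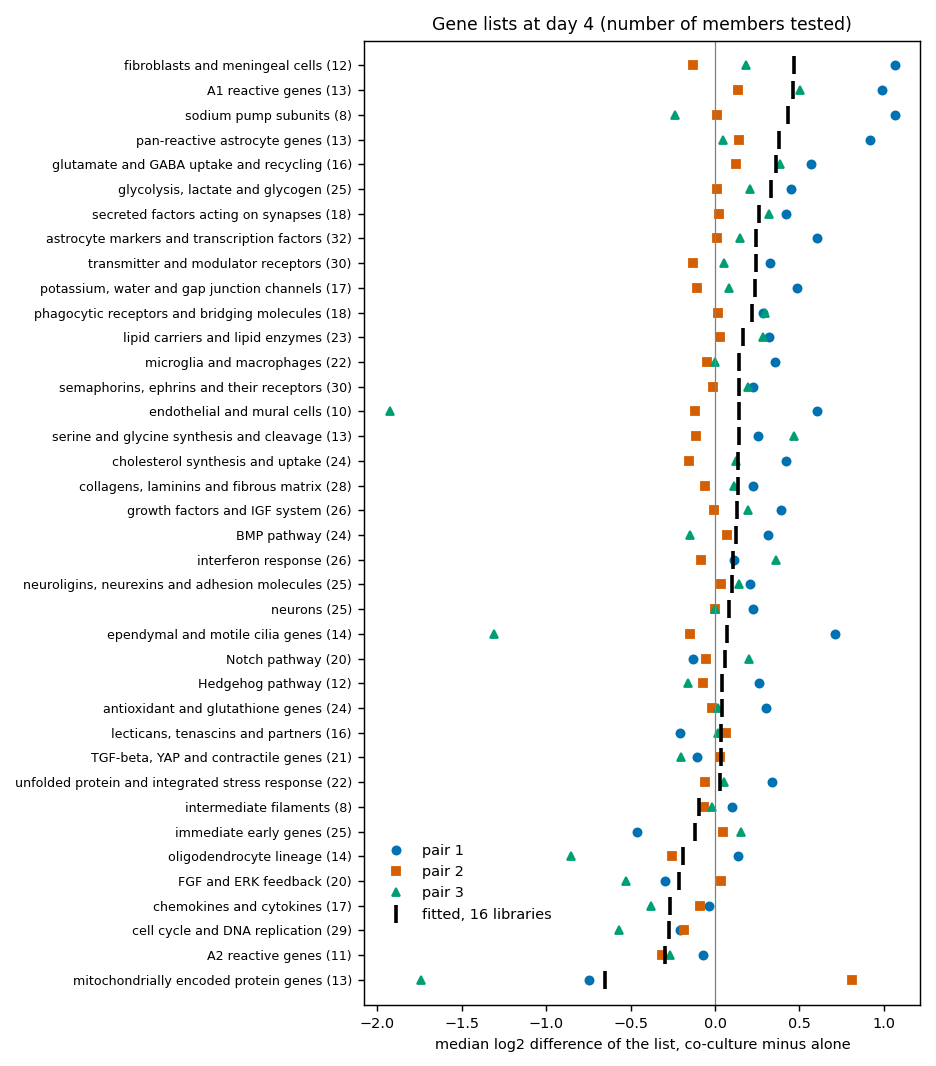
Median log2 difference, co-culture minus alone, of each gene list in pair 1 (circles), pair 2 (squares) and pair 3 (triangles), with the median fitted difference as a bar; the number of members tested stands in brackets. For most lists pair 2 lies near 0 and pair 1 furthest to the right, and the mitochondrially encoded genes spread widely, from −1.74 in pair 3 to 0.81 in pair 2.

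Among metabolic genes, those of glycolysis and those of lipid carriers and enzymes had many members that were higher in every pair. Of 25 genes of glycolysis, lactate and glycogen, 20 had a positive fitted difference (median 0.33), 9 were higher in 3 of 3 pairs (36%, against 9.23% of all genes) and 1 was lower. Of the 25, 23 had a mean of at least 5 CPM, and among coding genes of that level 12% were higher in 3 of 3 pairs. The median differences were 0.45, 0.01 and 0.21 in pairs 1, 2 and 3. Ldha, the lactate dehydrogenase subunit that favours lactate production, had 119, 156 and 88.99 CPM in co-cultures 1, 2 and 3, against 87.3, 125 and 65.2 CPM in the cultures alone. Every co-culture was above its partner by a similar amount (0.45, 0.33 and 0.45 on the log2 scale), and the groups overlapped. Its fitted difference was 0.40 ± 0.25 (SE, unadjusted p = 0.124). Pfkl, a phosphofructokinase, had 101, 86.03 and 101 CPM in co-culture and 69.7, 80.8 and 63.8 CPM alone, with no overlap. Pkm, pyruvate kinase, had 340.3, 419 and 296 CPM in co-culture and 230.5, 342 and 236 CPM alone, and Gys1, glycogen synthase, had 44.6, 57.5 and 77.3 CPM in co-culture and 39.7, 50.4 and 38.1 CPM alone. Slc2a1, the glucose transporter GLUT1, went the other way in pair 2, with 75.3, 30.8 and 101 CPM in co-culture and 40.3, 47.7 and 52.6 CPM alone. Gapdh, a glycolytic enzyme whose gene has many near-identical pseudogene copies, had 6.702, 4.14 and 10.8 CPM in co-culture and 9.72, 2.31 and 5.25 CPM alone, and how reads shared with those copies were counted is not given.

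Of 23 genes for lipid carriers and lipid enzymes, 18 had a positive fitted difference (median 0.16). In 3 of 3 pairs 9 were higher (39.1%, against 9.23% of all genes) and 0 were lower (against 16.4%). The median differences were 0.32, 0.03 and 0.29 in pairs 1, 2 and 3. Scd2, a fatty acid desaturase, had 1799.8, 1603 and 5464 CPM in co-cultures 1, 2 and 3, against 927, 1453 and 4313 CPM in the cultures alone. Pair differences were 0.96, 0.14 and 0.34 and the fitted difference was 0.46 ± 0.25 (SE, unadjusted p = 0.0829). Srebf1, a transcription factor of lipid synthesis, had 116, 118 and 434 CPM in co-culture and 72.4, 116 and 214 CPM alone, so it was level in pair 2 and about 2-fold higher in pair 3. Clu, the lipid-binding chaperone clusterin, had 809, 2409.5 and 1617 CPM in co-culture and 259, 1885 and 1105 CPM alone. Apoe, the main lipid carrier that astrocytes release, was higher in pair 1 only, with 402, 592 and 401 CPM in co-culture and 182, 602 and 582 CPM alone. Among 24 genes of cholesterol synthesis and uptake, 2 were higher in 3 of 3 pairs (8.33%) and 0 lower. Of 13 genes of serine and glycine synthesis and cleavage, 1 was higher (7.69%) and 0 lower. Of 24 antioxidant and glutathione genes, 3 were higher (12.5%) and 0 lower.

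Of 18 secreted factors that act on synapses, 12 had a positive fitted difference (median 0.26). In 3 of 3 pairs 5 were higher (27.8%, against 9.23% of all genes) and 0 were lower (against 16.4%). Sparcl1 (hevin), which promotes excitatory synapses, had 15.2, 32.8 and 74.7 CPM in co-cultures 1, 2 and 3, against 5.96, 32.4 and 68.4 CPM in the cultures alone. It was low in culture alone 1 and nearly equal within the other pairs. Sparc, its relative that opposes it, had 2164, 3369 and 2217 CPM in co-culture and 1704, 2445 and 2068 CPM alone, higher in co-culture in each pair. Chrdl1, which drives synapse maturation through AMPA receptors, had 89.5, 92.8 and 126 CPM in co-culture and 64.6, 90.7 and 95.8 CPM alone. Thbs1 and Thbs2, the thrombospondins that start synapse formation, and Gpc4, a glypican with a similar role, were split. Thbs1 had 3422, 3302 and 1326 CPM in co-culture and 3478, 3515 and 850.0 CPM alone, and Thbs2 had 101, 124 and 72.7 CPM in co-culture and 43.7, 149 and 51.96 CPM alone. Gpc4 had 1492, 1562 and 1381 CPM in co-culture and 801, 2005 and 1091 CPM alone, where the 3 cultures alone spread wider than the 3 co-cultures. Of 18 phagocytic receptors and bridging molecules, 6 were higher in 3 of 3 pairs (33.3%, against 9.23% of all genes) and 0 lower. Mfge8, a bridge to dying cells, had 111, 82.6 and 77.8 CPM in co-culture and 90.5, 73.2 and 43.7 CPM alone. Itgav, a subunit of its receptor, had 492, 510.3 and 539 CPM in co-culture and 375, 453 and 498 CPM alone.

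Genes of the pan-reactive and A1 states of astrocytes had their largest median differences in pair 1, while several A1 members differed as much or more in pair 3. Of 13 genes raised in all reactive states, 5 were higher in 3 of 3 pairs (38.5%, against 9.23% of all genes) and 1 was lower (7.69%, against 16.4%). Of 13 genes of the A1 state described after inflammation, 6 were higher (46.2%) and 0 lower. The A1 list had medians of 0.99, 0.14 and 0.51 in pairs 1, 2 and 3 and a median fitted difference of 0.46. Pair differences were 1.20, 0.33 and 1.20 for H2-T23, a class I histocompatibility gene, 0.48, 0.14 and 1.10 for Gbp2, an interferon-induced GTPase, and −0.14, 0.91 and 2.36 for Amigo2, an adhesion protein. The list of all reactive states had medians of 0.92, 0.14 and 0.05. C3, the complement protein used as the A1 marker, had 2607, 10290.0 and 11289 CPM in co-cultures 1, 2 and 3, against 683, 9364 and 5165 CPM in the cultures alone. Culture alone 1 was the lowest by far and pair 2 was level, so the fitted difference of 0.87 ± 0.79 (SE, unadjusted p = 0.283) was about the size of its error. Serpina3n, a protease inhibitor, had 147, 851 and 358 CPM in co-cultures 1, 2 and 3, against 27.5, 823 and 262 CPM in the cultures alone, with 1 library again far below the rest. H2-D1, another class I gene, had 809, 1078 and 303 CPM in co-culture and 330.0, 1050.4 and 147 CPM alone. Osmr, the oncostatin M receptor, had 317, 489 and 431 CPM in co-culture and 219, 437 and 309.8 CPM alone, and Cp, ceruloplasmin, had 3699.5, 5795 and 3664 CPM in co-culture and 1958, 5233 and 2802 CPM alone.

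Of the 11 genes of the A2 state, described after ischemia, 0 were higher in 3 of 3 pairs and 3 were lower. That share of 27.3% stood beside 16.4% of all genes. Of the 9 members with a mean of at least 5 CPM 1 was lower, where the share of coding genes is 12.2%. The other lower members had a mean under 5 CPM. The median fitted difference was −0.30, with medians of −0.07, −0.32 and −0.27 in pairs 1, 2 and 3. S100a10, an annexin partner, had 72.4, 51.4 and 22.6 CPM in co-cultures 1, 2 and 3, against 150.4, 69.4 and 40.7 CPM in the cultures alone. Each co-culture was below its partner, and the dates stood in the same order in both groups. The difference between the A1 and A2 lists was not tested. Chemokines and cytokines had a median of −0.27. In that list Il1b, an inflammatory cytokine, had 0.347, 9.63 and 0 CPM in co-culture and 1.18, 12.7 and 0.733 CPM alone, with reads almost entirely in the pair 2 libraries, and Ccl5, a chemokine, had 1.89, 20.4 and 0 CPM in co-culture and 4.03, 30.9 and 1.64 CPM alone. Interferon response genes had a median of 0.10, with 1 of 26 higher in 3 of 3 pairs (3.85%, against 9.23% of all genes) and 3 lower (11.5%, against 16.4%).

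**Figure D4:**
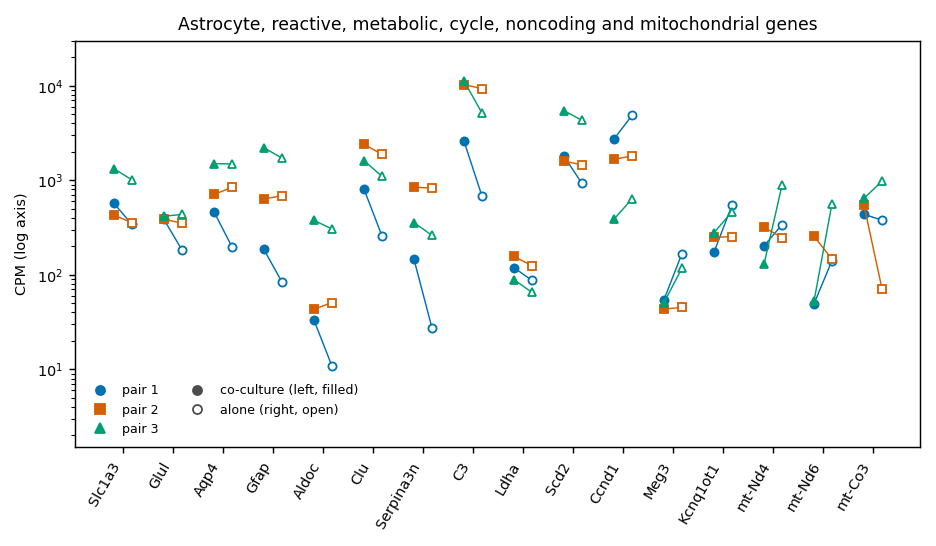
CPM (log axis) of 16 genes in the 6 day 4 libraries, drawn as for the leading genes: co-culture filled and left, alone open and right, lines joining pairs. Gfap, Aldoc and Serpina3n rank the dates alike in both groups and, with C3, are lowest in culture alone 1, and mt-Nd4 and mt-Nd6 slope upward to the cultures alone in pairs 1 and 3 but not in pair 2.

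Cell cycle genes leaned to lower values in co-culture. Of 29 genes of the cell cycle and DNA replication, 21 had a negative fitted difference (median −0.27), 10 were lower in 3 of 3 pairs (34.5%, against 16.4% of all genes) and 1 was higher. Of the 20 members with a mean of at least 5 CPM 9 were lower in 3 of 3 pairs, and of the 9 under it 1 was, where the shares of coding genes are 12.2% and 22.8%. Pair medians were −0.20, −0.19 and −0.57. Ccnd1, cyclin D1, which carries growth factor signals into the cycle, had 2732, 1669 and 387 CPM in co-cultures 1, 2 and 3, against 4856, 1813 and 636 CPM in the cultures alone. Each co-culture was below its partner, and the levels differed several-fold between dates. The fitted difference was −0.52 ± 0.37 (SE, unadjusted p = 0.185). Rrm2 and Tyms, enzymes that supply nucleotides for DNA synthesis, were lower in each pair. Rrm2 had 4.81, 22.9 and 7.35 CPM in co-culture and 8.47, 27.4 and 10.9 CPM alone. Tyms had 4.16, 6.48 and 4.01 CPM in co-culture and 9.003, 7.46 and 5.98 CPM alone. Pcna, the sliding clamp of replication, was the 1 member higher in 3 pairs, with 7.36, 14.3 and 18.1 CPM in co-culture and 6.61, 9.81 and 8.35 CPM alone. For 30 genes, 8 of the 16 libraries fitted were without a read, every replicate 2 library among them, while each of the other 8 had reads. Whether these zeros are missing RNA or a difference in how libraries were counted was not tested, so pair 2 is left out for the members described here. Mki67, the proliferation marker, had 12.6 and 10.2 CPM in co-cultures 1 and 3, against 14.2 and 23.6 CPM in their partners. Ntrk2, the receptor for the neuronal growth factor BDNF, had 829 and 2689 CPM in co-cultures 1 and 3, against 446 and 1813 CPM in their partners, higher in both.

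Among signalling pathways, the list of FGF ligands, receptors, targets and feedback regulators had a median of −0.21. Of its 20 genes, 5 were lower in 3 of 3 pairs (25%, against 16.4% of all genes) and 2 higher (10%, against 9.23%). Of the 17 members with a mean of at least 5 CPM 3 were lower, where the share of coding genes is 12.2%. Spred2, an inhibitor of ERK signalling, had 43.3, 23.9 and 17.1 CPM in co-culture and 67.2, 28.5 and 30.9 CPM alone. The higher members were the receptors Fgfr3 and Fgfr2, and Fgfr2 had 203, 287 and 316 CPM in co-culture and 104, 282 and 243 CPM alone. Notch genes gave 1 of 20 higher and 1 lower (5% each). Hes5, the Notch target that neurons are known to switch on in astrocytes, was near the floor, with 20, 1 and 0 reads in co-culture and 0, 1 and 5 reads alone. Of 12 Hedgehog genes, 1 was higher in 3 of 3 pairs and 1 lower (8.33% each), the higher one being the co-receptor Boc with 97.6, 90.3 and 104 CPM in co-culture and 74.7, 82.9 and 71.02 CPM alone. BMP genes gave 3 of 24 higher (12.5%, against 9.23% of all genes) and 1 lower. Bmp6, a ligand and one of the higher members, had 200.2, 199.7 and 422 CPM in co-culture and 129, 199 and 246 CPM alone. Of 25 immediate early genes, 3 were higher (12%, against 9.23% of all genes) and 4 lower (16%, against 16.4%). Fos, an early transcription factor, had 275, 271 and 224 CPM in co-culture and 321, 307 and 110.0 CPM alone. Hspa5, the main chaperone of the endoplasmic reticulum, had 556, 706 and 625 CPM in co-culture and 407, 503 and 463 CPM alone, with every co-culture above every culture alone, and Asns, an asparagine synthetase of the integrated stress response, had 20.4, 17.5 and 17.96 CPM in co-culture and 28.3, 22.2 and 37.3 CPM alone, with every co-culture below.

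Receptors and surface proteins held further single cases. Gabbr1, a subunit of the GABA-B receptor, was lower in each pair, with 36.7, 25.2 and 18.6 CPM in co-culture and 56.5, 33.2 and 33.2 CPM alone. The adhesion molecule Ncam1 was higher in each pair by a nearly constant amount (0.21, 0.26 and 0.19), as was the axon guidance protein Sema6d (0.23, 0.21 and 0.18). Chl1, an adhesion molecule of neurites, had 90.2, 220.1 and 452 CPM in co-culture and 37.2, 202 and 360.2 CPM alone. For these 4 genes the unadjusted p ran from 0.0861 for Gabbr1 to 0.382 for Ncam1. The rule that made them eligible asked for 1 direction in 3 of 3 pairs. Over their whole lists, 6.67% of transmitter and modulator receptors were higher in 3 of 3 pairs and 13.3% lower. For adhesion molecules the shares were 16% and 8%, and for semaphorins, ephrins and their receptors 13.3% and 3.33%. All genes had 9.23% and 16.4%.

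RNA of the mitochondrial genome differed widely between pairs. The 13 protein genes of mitochondrial DNA had median differences of −0.74 in pair 1, 0.81 in pair 2 and −1.74 in pair 3, and 0 of them moved one way in all pairs. mt-Nd4, a subunit of respiratory complex I, had 202, 318 and 129 CPM in co-cultures 1, 2 and 3, against 339, 248 and 882 CPM in the cultures alone. mt-Nd6, the complex I subunit encoded on the opposite strand to the others, had 49.3, 257 and 52.5 CPM in co-cultures 1, 2 and 3, against 141, 146 and 566 CPM in the cultures alone. Co-culture was below in pairs 1 and 3 and above in pair 2. mt-Co1, a subunit of complex IV, was nearly level, with 4099.6, 2563 and 5287 CPM in co-culture and 4031, 2778 and 6335 CPM alone. The 2 mitochondrial ribosomal RNAs differed from each other: mt-Rnr1 had 8868, 23207 and 4265 CPM in co-culture and 9446, 15106 and 21231 CPM alone, while mt-Rnr2, which took 10.9% to 16.5% of the reads of these libraries, had pair differences of 0.17, 0.15 and −0.20. Cytosolic 28S ribosomal RNA, read as Rn28s1, had 46.6, 3227 and 100.4 CPM in co-culture and 253, 827 and 200.2 CPM alone. The libraries had been depleted of ribosomal RNA with a kit, and the part of that step in these values was not tested.

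Long noncoding RNAs (lncRNAs), a class looked at after values were seen, lay lower in co-culture than coding genes did. Of 727 lncRNAs tested, 218 were lower in 3 of 3 pairs (30.0%) and 26 were higher (3.58%), with a median fitted difference of −0.65. Protein-coding genes had 15.2% lower, 9.84% higher and a median of −0.02. Co-culture 3 had no read in many weakly expressed genes of both classes. Under 5 CPM, the pair 3 median was −2.25 for 586 lncRNAs and −1.81 for 4156 coding genes. At 5 CPM or more, the medians in pairs 1, 2 and 3 were −0.54, −0.10 and −0.31 for 141 lncRNAs, against 0.06, −0.06 and 0.07 for 10675 coding genes. In that class 33.3% of lncRNAs and 12.2% of coding genes were lower in 3 of 3 pairs, and 4.96% and 12% were higher. The difference between the classes was not tested, and no source used here tells whether counting took the strand into account, so lncRNAs that overlap other genes are uncertain.

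Named after their values were seen, 3 nuclear lncRNAs show the range. Meg3, an imprinted RNA, had 54.6, 43.5 and 50.8 CPM in co-cultures 1, 2 and 3, against 168, 45.2 and 118 CPM in the cultures alone. Cultures alone 1 and 3 stood above the other 4 libraries, and the fitted difference was −1.07 ± 0.46 (SE, unadjusted p = 0.0337). Kcnq1ot1, an imprinted antisense RNA, had 174, 249.7 and 279 CPM in co-culture and 543, 253 and 466 CPM alone, again with pair 2 level. Malat1, an abundant RNA of nuclear speckles, had 17171, 16424 and 30404 CPM in co-culture and 18007, 16625 and 36475 CPM alone, lower in co-culture in each pair by small amounts (pair differences of −0.07, −0.02 and −0.26). Entries annotated as microRNA genes, 49 in number, gave 20 lower in 3 of 3 pairs (40.8%, against 16.4% of all genes) and 0 higher. They were not split by level, and under 5 CPM the share lower was 22.8% of coding genes and 29.2% of lncRNAs. Median differences of the microRNA entries were −1.14, −0.13 and −1.52 in pairs 1, 2 and 3. How reads of a host transcript over such short genes were counted is not given.

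**Figure D5:**
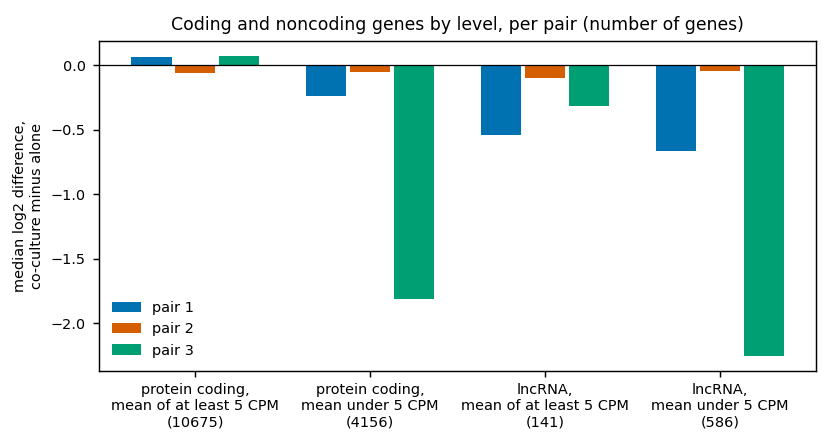
Median log2 difference, co-culture minus alone, per pair (bars in the order pair 1, 2, 3) for coding genes and lncRNAs of at least 5 CPM and under 5 CPM, with the number of genes. Coding genes of at least 5 CPM lie at 0.06, −0.06 and 0.07, lncRNAs of that level at −0.54, −0.10 and −0.31, and pair 3 is lowest for weakly expressed genes of both kinds.

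Each pair had its own leading genes, taken as the 10 largest differences each way among genes of at least 20 CPM in the pair, a rule set after the data were seen. In pair 1 the higher genes included several secreted proteins. Chil1, a secreted chitinase-like protein, had 75.9 CPM in co-culture 1 and 9.31 CPM in its partner, 8.16-fold higher. Serpina3n was 5.32-fold, the protease inhibitor A2m 4.12-fold, the pentraxin Ptx3 4.00-fold, the lipopolysaccharide-binding protein Lbp 3.92-fold and C3 3.82-fold higher. In pair 3 these genes differed by less, with log2 differences of 0.71 for Chil1, 0.86 for A2m, 0.99 for Lbp, 1.13 for C3, 0.45 for Serpina3n and −0.27 for Ptx3, and in pair 2 by −0.17 to 0.43. The lower genes of pair 1 included the transcription factors Fosb, with 57.1 CPM in co-culture and 263 CPM alone, Klf7 and Meis3, and 4 lncRNAs. Fosb was higher in co-culture in pair 3, at 35.8 CPM against 9.59 CPM.

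In pair 2 the higher genes included mt-Co3, with 547 CPM in co-culture and 71.3 CPM alone, Tpt1, a translation-linked growth protein, with 117 CPM in co-culture and 15.6 CPM alone, Rn28s1, and the ribosomal protein gene Rpl23. The 74 cytosolic ribosomal protein genes had median differences of 0.22, 0.35 and −0.61 in pairs 1, 2 and 3. Tpt1 and the ribosomal proteins have many near-identical copies in the genome, so their counts are uncertain. The lower genes of pair 2 reached only 2.20-fold. In pair 3 the higher genes included Haus6, of the mitotic spindle, with 44.7 CPM in co-culture and 8.97 CPM alone, and Ago4, an Argonaute protein. The lower ones included mt-Nd6, mt-Nd4, the nucleolar proteins Nop58 and Gnl2, the calcium-binding protein S100a11 and Fabp7, the fatty acid carrier of radial glia, with 24.2 CPM in co-culture and 122 CPM alone. Fabp7 was higher in co-culture in pairs 1 and 2.

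The day 4 differences were set against those at days 2 and 7, which have their own cultures alone. The effect of co-culture at day 4 minus that at day 2 passed an adjusted p of 0.05 in edgeR for 14 genes (0.0819%), and day 4 minus day 7 for 15 genes (0.0878%). All of them belong to the 30 genes without a read in 8 libraries, and without those genes 0 remained in either test. For the 24 leading genes, no difference between days passed. Of the 12 leading higher genes, 7 had a positive fitted difference at day 2 and 6 at day 7. Of the 12 lower ones, 3 were positive at day 2 and 0 at day 7. The glycolysis list had medians of −0.01, 0.33 and −0.01 at days 2, 4 and 7, the A1 list 0.004, 0.46 and 0.41, and the cell cycle list −0.29, −0.27 and −0.35. The differences between days of these lists were not tested.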

How the data were processed

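The authors deposited 1 table of read counts per gene (26301 Entrez IDs, 18 libraries), made with Subread and featureCounts on the mouse build mm9, per the submitters' processing notes. Versions, strand setting and filters were not given in the sources used here. Ribosomal RNA had been removed with a kit and cDNA made with low-input kits, per the labels' protocols. The table's 17 columns of correlations between libraries were not used. Symbols came from RefSeq for 24191 IDs, and from GENCODE for mitochondrial genes. No coordinates are given, since the reference build differs.

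Counts were analysed in R 4.3.3 with edgeR 4.0.16 (TMM scaling, filterByExpr, quasi-likelihood F test, Benjamini-Hochberg threshold 0.05). The model had 6 group means and a block for the replicate number over 16 libraries, leaving out replicate 1 of day 2 alone (92.46% of its reads on 1 gene) and replicate 1 of day 7 co-culture (40.46% on mt-Rnr2), with 8 residual degrees of freedom and a median biological coefficient of variation of 0.384. Log2 CPM used a prior count of 2. The labels give 1 date to all libraries of a number, so numbers pair the samples: deviations from the group mean correlated at 0.504 to 0.619 within numbers. Such deviations cancel out within a group. Negative values between numbers (−0.456 to −0.197) therefore follow from positive ones within them and add no support. Within each day 4 group, no libraries agreed within sampling noise, and libraries of different groups were not compared in this way. Since nothing shows that the replicates came from different animals, p-values reflect only how these cultures vary, which may be technical.

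Leading genes were named by a rule: at least 5 CPM on average, at least 1 CPM in each pair, 1 direction in 3 of 3 pairs, smallest unadjusted p first, 12 each way. Up to 4 such members of at least 1 CPM were eligible per list, 24 genes were named whatever their values, and further ones were named after their values were seen. Members and the 38 lists were chosen with earlier results of these data known. Alternatives were DESeq2 1.42.0, limma-voom (limma 3.58.1), other scalings, filters and library sets, no block, and leaving out replicates. The procedure was tested on simulated data. Some genes that the naming rule takes in are not reported here.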

Additional observations from a re-analysis of the deposited data

How the results depend on the processing

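The count of genes called at day 4 stayed at 0 in every alternative run except DESeq2 with the replicate block, which called 7; without the block, with all 18 libraries, and without each replicate or day 4 library in turn it was 0. The numbers of genes at an unadjusted p under 0.05 moved more, from 15 to 388 higher and from 20 to 472 lower. Without the replicate block they were 64 and 86. The 14 and 15 genes called between days were 0 and 0 without the replicate block, with all 18 libraries with or without the block, in limma-voom and without the 30 genes that lack reads in 8 libraries (chosen after seeing the data). DESeq2 gave 1 and 2, and leaving out replicates or single libraries gave 0 (without number 3) to 34 and 0 (without number 3) to 45, the most without number 2.

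With a mean of at least 10 CPM, 1098 genes were lower in 3 of 3 pairs, fewer by construction. The fitted difference of Plxnd1 was −0.0462 in limma-voom and ran from −0.0833 (without co-culture 3) to 0.44 with 1 library or number left out. That of Stmn2 was 0.19 in limma-voom and ran from −0.61 to 0.20 (without culture alone 1), and that of Cx3cl1 ran from −0.12 (without culture alone 1) to 0.48. These are changes of sign, and the cause was not tested. Of the 38 list medians, 18 kept their sign in all 22 alternatives and 20 did not. Those for glycolysis (0.14 to 0.41), A1 genes (0.25 to 0.67) and cell cycle (−0.51 to −0.13) kept it. Those for FGF (−0.42 to 0.07), chemokines and cytokines (−0.47 to 0.02), interferon response (−0.06 to 0.29) and intermediate filaments (−0.17 to 0.01) did not. The medians of the astrocyte markers and of the potassium, water and gap junction genes kept their sign and were lowest without replicate 1, at 0.04 each. Genes of few reads are limited by depth, most in co-culture 3.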
